A study of Mus musculus with 18 samples.

Results

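Collagens are the main structural proteins of the extracellular matrix, and here they were taken as every gene whose symbol is Col, a number, a and a number. The arrays carried 42 such genes among 18193 genes with a probe set of their own, each read from its brightest probe set. A minimum signal of 22.5 (the median signal over the table) was met on 2 or more of the 18 arrays by 34 of them, and these were tested among 13379 genes. The other 8 stayed below it (Col10a1, Col11a2, Col17a1, Col19a1, Col24a1, Col25a1, Col6a5 and Col9a2). Of the 34, Col4a3, Col4a4, Col6a4, Col8a1 and Col8a2 passed only through the cardiomyocyte arrays, so that 29 passed on the sorted cells alone.

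The study followed heart muscle formation in embryoid bodies of the mouse embryonic stem cell line D3, grown from hanging drops in medium with serum and, from the suspension stage, ascorbic acid. Reporter cells carried GFP behind an Nkx2-5 enhancer and the Hsp68 minimal promoter, together with a hygromycin resistance gene. On days 5, 6, 7 and 8 they were sorted by GFP, in 2 batches, into a positive and a negative fraction, which gave 16 arrays. The other 2 arrays held cardiomyocytes of a second D3 clone with a neomycin resistance gene under the aMHC promoter, selected with G418, for which the labels give neither a day nor a batch. The reporter marks cells by one enhancer and not by Nkx2-5 protein, and the number of reporter clones behind the arrays is not stated. The stem cells were kept on embryonic fibroblasts, which were removed before differentiation began. All values are microarray signals on a linear scale, and differences are in log2(signal + 6.8), where 6.8 is the 25th percentile of all signals. A gene was called where limma gave an adjusted p under 0.05 over all tested genes. Each group held 2 arrays, which limits the precision, and no label says whether batches were separate differentiations, so p-values measure the spread between these arrays, which may be technical.

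Every collagen is a trimer of chains wound into a triple helix. Fibrillar chains form the rope-like fibres of connective tissue, type IV chains form the sheet of basement membranes under epithelium and endothelium and around muscle cells, and the other classes decorate fibres, anchor membranes or form small networks. Chains are hydroxylated and folded in the endoplasmic reticulum by enzymes that need ascorbic acid, trimmed by propeptidases outside the cell, and bound there by integrins and discoidin receptors.

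Promoter stretches of 4 collagens that carry the results are shown to place the genes: the type IV chain with the largest excess in GFP-positive cells, and 3 fibrillar chains that rose with time. They come from RefSeq (GRCm38.p6), whose table held windows for 33 of the 42 genes. Each is read 5′ to 3′ on the plus strand, which is the coding strand of all 4 genes, and capitals mark 1 motif per stretch, with positions counted back from -1 at the base before the annotated start.
Col4a2 (chr8:11312768-11312797, CCAAT at -32): gctccCCAATttgttggcgctgccccctcc
Col1a2 (chr6:4505498-4505617, CCAAT at -109): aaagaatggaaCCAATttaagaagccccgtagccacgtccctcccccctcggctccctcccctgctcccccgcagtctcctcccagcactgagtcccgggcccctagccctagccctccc
Col3a1 (chr1:45311408-45311537, TATAAA at -117): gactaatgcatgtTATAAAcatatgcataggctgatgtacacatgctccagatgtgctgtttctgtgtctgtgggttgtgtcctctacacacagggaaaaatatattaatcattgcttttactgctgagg
Col5a1 (chr2:27886305-27886424, GGGCGG at -73): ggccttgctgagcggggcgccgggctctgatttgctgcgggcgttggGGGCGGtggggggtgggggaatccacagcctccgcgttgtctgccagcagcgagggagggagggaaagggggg
The neighbour of Col4a2, Col4a1, is read in the opposite direction, from an annotated start 21 bases away from that of Col4a2. In the 250 bases before the start, on either strand, CCAAT was found in 13 of 36 collagen windows (36.1%) and in 33.8% of all 32851 windows. TATAAA was found in 13.9% of collagen windows and 12.4% of all windows, and GGGCGG in 58.3% and 32.7%. By class, GGGCGG was found in 6 of 8 fibrillar windows and 3 of 5 type IV windows, and CCAAT in 3 of 8 and 3 of 5. Some of the searched motifs and reverse complements share letters, so matches can overlap, and a match is a run of letters, not a measured binding site.

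The labelled cell types were checked on their markers. Nkx2-5, the gene whose enhancer drove the reporter, was higher in GFP-positive cells by 1.07 ± 0.26 (SE; limma adjusted p = 0.0441), and all 8 heart muscle markers had positive differences, of which Nkx2-5 alone was called. The cardiomyocyte arrays held the highest summed heart muscle signals, 44167.2 and 45116.3 against 11365.2 to 18455.3 in GFP-positive cells of days 7 and 8. All 8 differences from those cells were positive, and 1 of the 8 was called. Array medians ran from 18.2 to 29.3, and arrays of a group correlated at 0.936 to 0.985 over the tested genes. The day 5 arrays of batch 2 stood apart. Pou5f1, a pluripotency factor, read 1161.2 in their GFP-negative and 306.3 in their GFP-positive cells and at most 229.6 on any other sorted array. Counts over time are therefore given with and without these arrays, as are the values of the genes whose call they change.

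The sort separated the main type IV chains. Col4a1 and Col4a2, which wind together into the common basement membrane trimer, were the 2 collagens called between GFP-positive and GFP-negative cells over days 5 to 8, both higher in GFP-positive cells, and no collagen was called lower. That is 2 of 34, where 2.68% of all tested genes were called, 2.14% of them higher. The fibrillar chains had mostly negative differences, of which none was called.

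The Col4a1 signal ranged from 1104.5 to 3832 in GFP-positive cells, with a median of 1492, and from 381.1 to 1056.5 in GFP-negative cells, with a median of 677. The lowest GFP-positive array stood above the highest GFP-negative one, which held for 1 of the 34 collagens, and the share over all genes was not counted. The difference was 1.46 ± 0.23 (SE, 8 arrays against 8), or 2.75-fold, with a limma adjusted p of 0.00683. The Col4a2 signal ranged from 302.2 to 1655.2 with a median of 542 in GFP-positive cells and from 113.3 to 329.6 with a median of 230 in GFP-negative cells. Its 2 groups overlapped slightly, and the difference of 1.63 ± 0.26, or 3.09-fold, was called with a limma adjusted p of 0.00673. When each GFP-positive array was set against the GFP-negative array of its day and batch, both chains were higher in 8 of 8 pairs, a pattern that 3.45% of all tested genes showed, with 2.86% lower in all pairs.

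The 2 chains moved side by side from pair to pair. In batch 1 the Col4a1 difference was 0.74 on day 5, 1.28 on day 6, 1.62 on day 7 and 1.83 on day 8, and in batch 2 it was 0.84, 0.18, 1.85 and 3.31. For Col4a2 the same pairs gave 0.68, 1.49, 2.07 and 2.13 in batch 1, and 0.98, 0.15, 1.74 and 3.79 in batch 2. The smallest difference of both chains was on day 6 of batch 2, and the largest on day 8 of batch 2. Within batches, the mean difference was 1.37 and 1.55 for Col4a1 and 1.59 and 1.66 for Col4a2. With batch 2 alone neither was called (limma adjusted p = 0.398 and 0.518), nor was any of the 13379 genes. A fit to 1 batch has a single array per fraction and day, so it took days 5 and 6, and days 7 and 8, as replicates. Its p-values therefore measure the spread between arrays of different days, unlike those of the main fit. A second probe set of Col4a1 gave 1.51.

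No other type IV chain was called. Col4a5 and Col4a6, which build the trimer of smooth muscle and some epithelial basement membranes, differed by 0.05 and -0.26, and neither was called. Col4a3 and Col4a4, known from kidney filters, differed by -0.14 and -0.03 at low signals. Col18a1, a basement membrane multiplexin whose end fragment is endostatin, was the higher one on the GFP-positive array of 7 of 8 pairs. Its difference of 0.94 ± 0.36 was not called (limma adjusted p = 0.177), but it was called without the day 5 arrays of batch 2 (1.07, adjusted p = 0.00442), when only the GFP-positive one of them was left out (1.29, adjusted p = 0.0104) and in batch 1 alone (0.93, adjusted p = 0.00347). Its signals on the day 5 arrays of batch 2 were 228.5 in GFP-positive and 259.3 in GFP-negative cells, the lowest of all sorted arrays. The related Col15a1 differed by 0.36 and was not called.

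Differences were negative for 7 of 9 fibrillar and 4 of 5 beaded filament chains, and none passed the test. Col3a1, the chain of pliable embryonic fibres, differed by -1.07 ± 0.84 (limma adjusted p = 0.54). For Col1a2 and Col1a1, which form type I collagen, the differences were -0.88 ± 0.43 (adjusted p = 0.294) and -0.77 ± 0.35 (adjusted p = 0.262), and for the type VI chain Col6a3 -0.68 ± 0.27 (adjusted p = 0.198). In 7 of 8 pairs each of these 4 read lower on the GFP-positive array. In batch 1 alone Col1a1 was called lower (-1.15, adjusted p = 0.00776). The median over 9 tested fibrillar chains was -0.37, with -0.73 in batch 1 and -0.03 in batch 2, and over the 5 beaded filament chains -0.12, with -0.46 in batch 1 and 0.21 in batch 2, beside 0.01 over the 6 type IV chains and -0.01 over all tested genes.

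Markers of several cell types moved with the sort. Of 5 pluripotency markers 4 were called lower in GFP-positive cells, with a list median of -1.58 and sums of 60.2 to 413.2 against 251.9 to 2625.4. Nanog, Zfp42 and Utf1 met the minimum signal on fewer than 2 arrays outside the GFP-negative fraction. They could enter the test only through that fraction, where they were higher, and the count was not repeated without them. The summed signal of 8 endothelial markers was 2574.8 to 5688.8 in GFP-positive and 810 to 1516.6 in GFP-negative cells, and 5 of the 8 were called higher. Of 9 visceral and gut endoderm markers 2 were called higher, with sums of 170.5 to 14690 in GFP-positive and 1383.4 to 3807.6 in GFP-negative cells. Of 7 parietal endoderm markers, a tissue known for its heavy type IV output, Cited1 alone was called, and the sums overlapped (1148 to 3016.7 against 965.9 to 2626.6). Fibroblast and feeder markers were negative in 8 of 9 and called in none, with sums of 921.4 to 1747.5 in GFP-positive and 754.3 to 10767 in GFP-negative cells. Of the other lists, 1 of 5 smooth muscle markers (Smtn) and 1 of 5 tested cartilage and notochord markers (Hapln1) were called higher, 1 of 3 tested neuroectoderm markers (Otx2) was called lower, and no epicardial marker was called. The part of these cells in the collagen differences was not tested, and in bulk samples fewer cells of a type and less RNA per cell cannot be told apart.

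**Figure D1:**
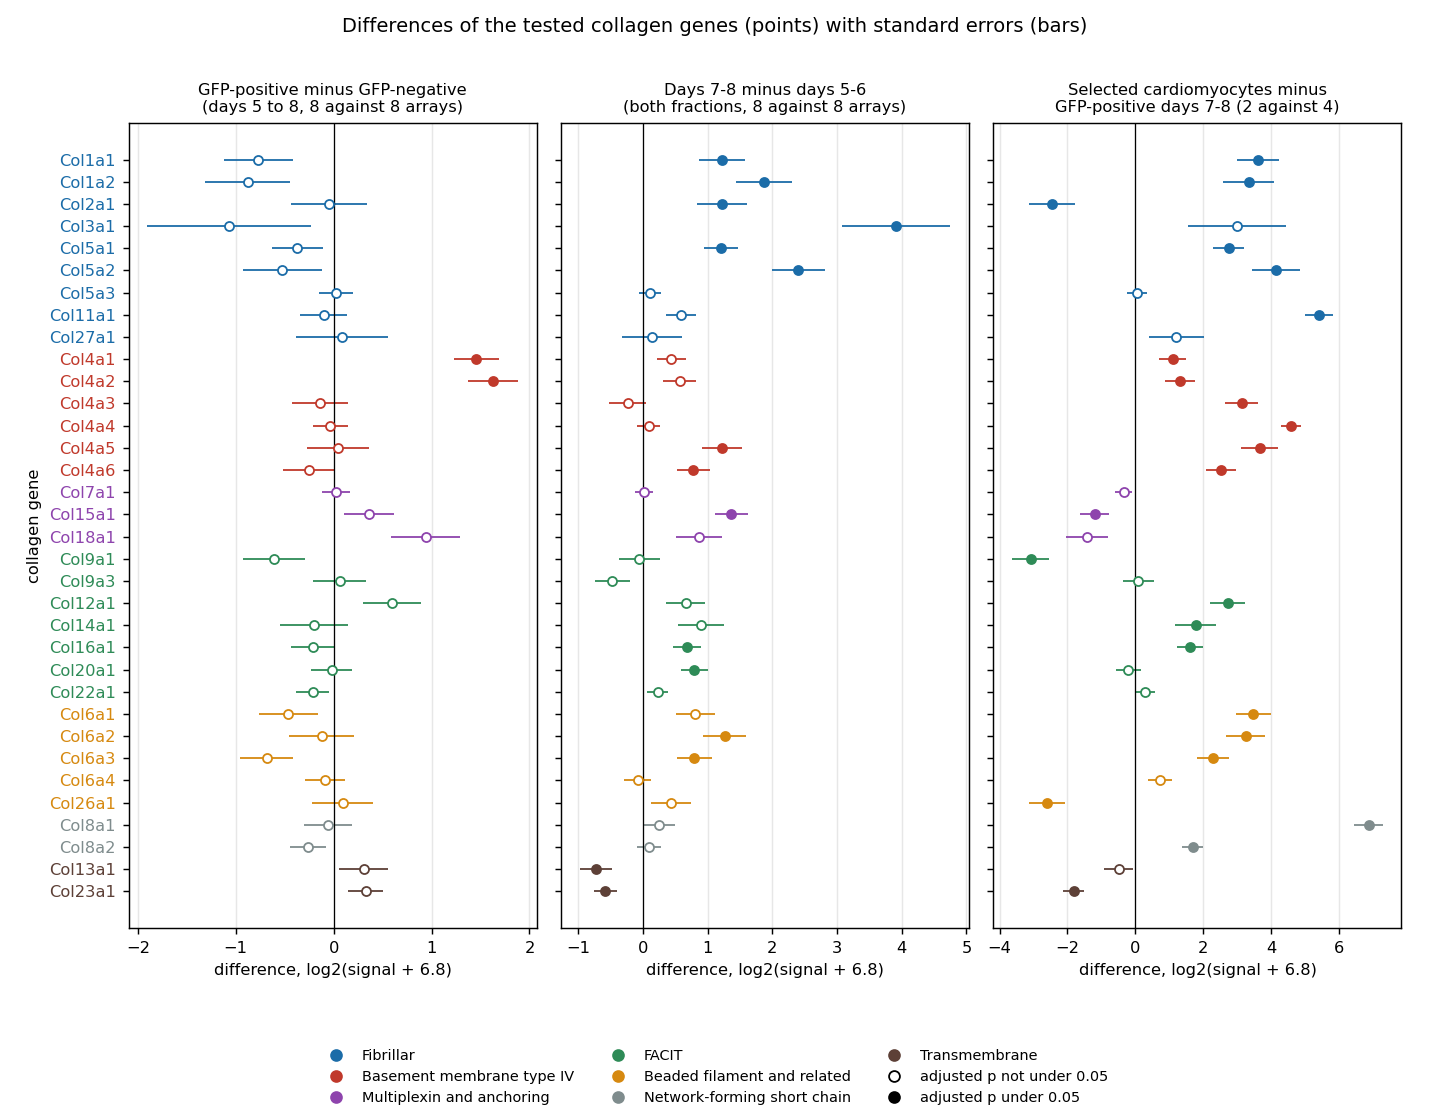
Differences of the 34 tested collagen genes in log2(signal + 6.8) with standard errors, grouped by class, for GFP-positive against GFP-negative cells, days 7 and 8 against days 5 and 6, and selected cardiomyocytes against GFP-positive cells of days 7 and 8. Filled points are called: 2 genes in the first comparison (Col4a1 and Col4a2), 15 in the second and 24 in the third.

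Fibrillar chains rose with time. Between days 5 and 6 and days 7 and 8, over both fractions, 13 of 34 collagens rose and 2 fell, where 30.3% of all tested genes were called, 17.1% higher and 13.2% lower. Col3a1 rose most, followed by Col5a2 and Col1a2, and 6 of 9 fibrillar chains rose in all. Col15a1, Col20a1 and Col2a1 met the minimum signal on fewer than 2 arrays outside days 7 and 8, so they could enter the test only through the days on which they were higher, and 10 of the 13 did not depend on this. No collagen had all 8 late arrays above or below all 8 early ones, a pattern that 1.24% and 1.02% of tested genes showed.

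Col3a1 read 171.2 and 263 in GFP-negative and GFP-positive cells on day 5 of batch 1 and 2.2 and 0.6 on day 5 of batch 2. On day 6 it read 1258.7 and 717.9 in batch 1 and 123.2 and 69 in batch 2. On days 7 and 8 its 8 signals ran from 744.4 to 6211 with a median of 1099. Of the early arrays, GFP-negative cells of day 6 of batch 1 alone lay inside the late range, and in each fraction and batch day 7 was above day 5 and day 8 above day 6. The difference was 3.92 ± 0.84 (limma adjusted p = 0.00454), with 2.28 in batch 1 and 5.55 in batch 2. Without the day 5 arrays of batch 2 it was 2.73 and was still called.

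Col5a2, a chain that sets fibre width together with type I collagen, went from a median of 78.5 (31.3 to 390.3) on days 5 and 6 to a median of 424 (289.4 to 2221.2) on days 7 and 8. The ranges overlapped through GFP-negative cells of day 6, batch 1, and the rise was 2.40 ± 0.40 (limma adjusted p = 0.00138). Its partner Col5a1 went from a median of 230 (92 to 422.1) to 442 (313.8 to 1437.9), a rise of 1.20 ± 0.26 (adjusted p = 0.00482). Col1a2 went from a median of 393 (38.4 to 907.6) to 745 (423.1 to 4357), a rise of 1.87 ± 0.43 (adjusted p = 0.00668). Its type I partner Col1a1 went from a median of 67.2 (11.3 to 111) to 101.4 (71 to 382.9), a rise of 1.22 ± 0.35 (adjusted p = 0.0198). The early and late ranges overlapped for Col5a1, Col1a2 and Col1a1. Without the day 5 arrays of batch 2 the Col1a1 difference was 0.79 and was not called (adjusted p = 0.077). The highest signal of each of these 5 fibrillar chains on the sorted arrays was in the same sample, day 8 GFP-negative cells of batch 1. Col2a1, the main chain of cartilage that is also made in the notochord, rose by 1.22 ± 0.39 (adjusted p = 0.03) from low signals, with 163 in GFP-positive cells on day 8 of batch 2 as the highest. Without the day 5 arrays of batch 2 it was 0.92 and not called (adjusted p = 0.13). Of the 5 tested cartilage and notochord markers all had positive differences and Matn1 was called (1.26, adjusted p = 0.0194), while Acan, with at most 23.1 on any array, did not pass the signal filter. Col11a1, Col5a3 and Col27a1 were not called, and Col27a1 differed in sign between batches (1.49 and -1.21).

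Outside the fibrillar class, chains of several kinds rose. Col15a1, a multiplexin of muscle and vessel basement membranes, went from a median of 4.75 (0.6 to 19.5) to a median of 20 (11.4 to 65.7), with overlapping ranges, a rise of 1.36 ± 0.25 (limma adjusted p = 0.0023). Its early signals lie below the minimum of 22.5, and the rise was 0.59 to 2.18 with other offsets. Among type IV chains Col4a5 and Col4a6 rose, by 1.22 ± 0.31 (adjusted p = 0.0114) and 0.77 (adjusted p = 0.0362). Col4a1 and Col4a2 differed by 0.44 ± 0.23 (adjusted p = 0.168) and 0.57 ± 0.26 (adjusted p = 0.11) and were not called, although Col4a2 was with batch as a block (adjusted p = 0.0269). The type VI chains Col6a2 and Col6a3 rose, by 1.26 ± 0.33 (adjusted p = 0.013) and 0.79 (adjusted p = 0.0409). Their partner Col6a1 differed by 0.81 ± 0.30 (adjusted p = 0.0593) and Col18a1 by 0.87 ± 0.36 (adjusted p = 0.0814), and both were called with batch as a block (adjusted p = 0.0143 and 0.0252). Without the day 5 arrays of batch 2 they were not, at 0.69 (adjusted p = 0.176) and 0.29 (adjusted p = 0.22). Col16a1, which sits on the surface of fibres, rose by 0.68 (adjusted p = 0.0348), and the related Col20a1 by 0.79 (adjusted p = 0.0135). The 2 that fell were both membrane-spanning collagens, Col13a1 by 0.73 (adjusted p = 0.0415) and Col23a1 by 0.59 (adjusted p = 0.0253). The median difference was 1.22 over fibrillar chains, 0.50 over type IV chains and 0.05 over all tested genes.

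The count of 15 depended on single arrays, and it is given here without the share of all genes called in each fit. It was 9 without the day 5 arrays of batch 2, with Col14a1 gained (1.19, limma adjusted p = 0.0388) and 7 calls lost. The lost ones were Col1a1, Col2a1, Col4a5 (0.92, adjusted p = 0.056), Col4a6 (0.69, adjusted p = 0.121), Col6a2 (0.94, adjusted p = 0.0586), Col6a3 (0.92, adjusted p = 0.0526) and Col13a1 (-0.44, adjusted p = 0.164). It was also 9 when the day 7 GFP-positive array of batch 1 or either day 6 array of batch 2 was left out alone. Across the 18 fits that each left out 1 array, 8 of the 15 kept their call every time, namely Col1a2, Col3a1, Col4a5, Col5a1, Col5a2, Col6a2, Col15a1 and Col20a1. Over these fits the highest adjusted p was 0.0531 for Col1a1 (GFP-negative array of day 7, batch 1, left out), 0.0681 for Col23a1, 0.0764 for Col2a1, 0.0899 for Col4a6, 0.0927 for Col16a1, 0.0935 for Col13a1 and 0.104 for Col6a3. With equal array medians 8 rose and 3 fell, and after quantile normalization 8 rose and 2 fell. Fibroblast markers were divided over time, with 3 positive and 6 negative differences and a list median of -0.09. Lum, Postn and Dcn, genes of collagen-rich stroma, were higher by 3.17, 3.02 and 2.28. Thy1 was lower by 0.59, and the other 5 of 9 had negative differences and were not called. Of 4 epicardial markers 3 rose, of 8 heart muscle markers 5, of 8 endothelial markers 5, of 9 visceral and gut endoderm markers 4 and of 7 parietal endoderm markers 2, while 4 of 5 pluripotency markers fell. Smooth muscle, tested cartilage and notochord, and tested neuroectoderm lists had 1 marker each that rose. The part of these markers' cells in the result was not tested.

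**Figure D2:**
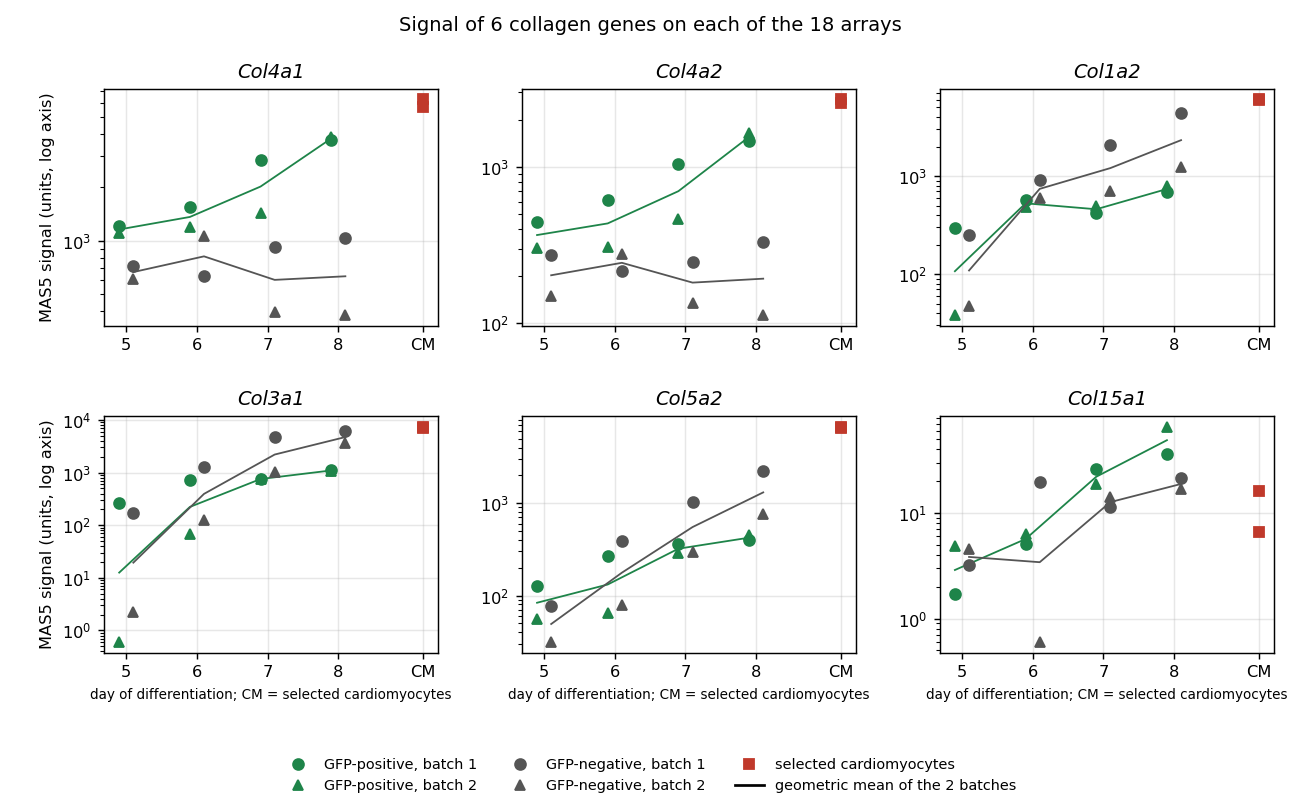
Signals of main collagen chains on every sorted array by day, on a log axis, for GFP-positive and GFP-negative cells of both batches, with the 2 cardiomyocyte arrays beside them. The Col4a1 signals of GFP-positive cells lie above those of GFP-negative cells, and Col3a1 reaches its sorted maximum of 6211 in GFP-negative cells of day 8.

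The fractions were then read apart, with 4 arrays against 4. In GFP-positive cells 5 collagens rose between days 5 and 6 and days 7 and 8 and none fell, where 19.4% of tested genes were called, 11.3% higher and 8.03% lower. They were Col2a1 (2.03 ± 0.55, limma adjusted p = 0.0236), Col15a1 (1.85 ± 0.36, adjusted p = 0.00727), Col5a2 (1.74 ± 0.57, adjusted p = 0.0497), Col4a2 (1.37 ± 0.36, adjusted p = 0.0216) and Col4a1 (1.13 ± 0.33, adjusted p = 0.0302). With batch as a block the count was 10, with Col3a1 (3.16, adjusted p = 0.00866), Col5a1 (0.77, adjusted p = 0.0245), Col4a5 (0.95, adjusted p = 0.0277), Col18a1 (1.26, adjusted p = 0.0296) and Col16a1 (0.94, adjusted p = 0.0454) gained. It was 1 without the day 5 arrays of batch 2, when Col2a1 (1.67), Col5a2 (1.46), Col4a2 (1.23) and Col4a1 (1.10) were not called (adjusted p = 0.0715 to 0.149), and also 1 without any single one of the GFP-positive arrays of day 7 of batch 1 or days 5, 6 or 8 of batch 2. Of the GFP-positive arrays of batch 1, leaving out day 8 gave 2 calls and leaving out day 5 gave 9, and Col15a1, which met the minimum signal on GFP-positive arrays of days 7 and 8 only, alone kept its call in all of these fits that left out 1 array. With equal array medians 3 rose and 1 fell, and after quantile normalization 4 rose and 1 fell.

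In GFP-negative cells 7 collagens rose and 1 fell, where 12.5% of tested genes were called, 7.25% higher and 5.25% lower. The type I, III and V chains other than Col5a3 rose, Col3a1 by 4.67 ± 1.18 (limma adjusted p = 0.0246), Col5a2 by 3.07 ± 0.57 (adjusted p = 0.00772), Col1a2 by 2.50 ± 0.61 (adjusted p = 0.0209), Col1a1 by 1.74 (adjusted p = 0.0386) and Col5a1 by 1.64 (adjusted p = 0.0158). Col6a2 and Col4a5 rose by 1.78 and 1.50, and Col23a1 fell by 0.92. With batch as a block Col14a1 (1.61, adjusted p = 0.0326) and Col9a3 (-1.03, adjusted p = 0.0477) were called as well. The count was 5 without the day 5 arrays of batch 2, with Col14a1 gained (1.94, adjusted p = 0.0469), and Col1a1 (1.19), Col4a5 (1.15), Col6a2 (1.34) and Col23a1 (-0.89) not called (adjusted p = 0.0839 to 0.137). Leaving out the GFP-negative array of day 7 of batch 1, or of day 5 or 6 of batch 2, brought it to 1, and leaving out that of day 8 of batch 1 brought it to 3, and Col5a2 alone kept its call throughout. Col4a1 and Col4a2 differed by -0.26 (adjusted p = 0.654) and -0.24 and were not called. The summed fibroblast markers were 754.3 to 2536 in GFP-negative cells of days 5 and 6 and 2048.3 to 10767 on days 7 and 8, beside 1372.9 to 1527.7 in GFP-positive cells of days 7 and 8, and their part in the result was not tested.

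A difference between the time courses of the fractions was not shown for any collagen. The interaction gave 0 calls among 34 in limma, where 0.142% of tested genes were called. At an unadjusted p under 0.05 there were 2, and the share of all genes at that p is not given here. The largest positive value was 1.69 for Col27a1, followed by Col2a1 (1.62 ± 0.77, adjusted p = 0.405), Col4a2 (1.61 ± 0.51, adjusted p = 0.199) and Col4a1 (1.39 ± 0.46, adjusted p = 0.217). The largest negative values were -1.50 ± 1.67 for Col3a1 (adjusted p = 0.74), -1.44 for Col14a1 and -1.33 ± 0.81 for Col5a2 (adjusted p = 0.519). With a planted interaction of 2 on simulated data, 72% of changed genes were called, and 40% with one of 1, so differences of this size could go uncalled. The changed genes were drawn from all tested genes, and the shares were not worked out for single collagens.

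**Figure D3:**
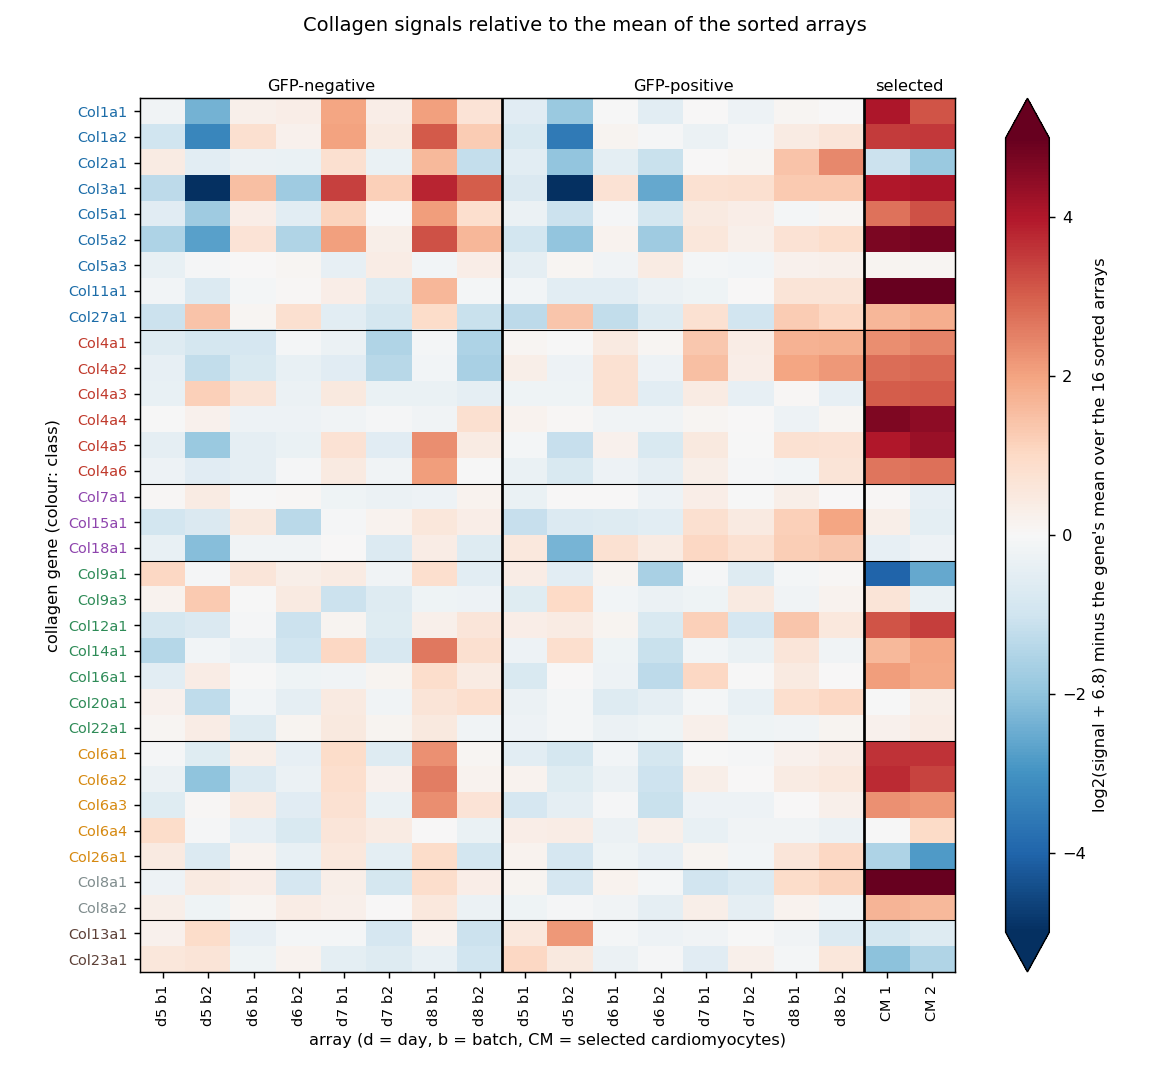
Signals of the 34 tested collagen genes on all 18 arrays as log2(signal + 6.8) minus each gene's mean over the 16 sorted arrays, with rows by class and columns by fraction, day and batch and the cardiomyocytes last. Most fibrillar, type IV and type VI rows are highest in the cardiomyocytes, and the stroma chains are next highest in GFP-negative cells of days 7 and 8.

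Collagens of most classes were higher in the selected cardiomyocytes than in the sorted GFP-positive cells of days 7 and 8. Of 34 collagens 19 were called higher and 5 lower (2 arrays against 4), where 43.3% of tested genes were called, 17.9% higher and 25.5% lower. Since 5 members passed the filter only through the cardiomyocyte arrays, the count was repeated on the 29 that passed on sorted cells, of which 15 were higher and 5 lower. Of these 5, Col15a1 met the minimum only on GFP-positive arrays of days 7 and 8, the group in which it was higher. Clone and selection differ between these samples, and the day and batch of the cardiomyocytes are not given, so their parts cannot be told apart. The median difference was 3.0 over fibrillar chains, 1.66 over all tested collagens and -0.13 over all tested genes.

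All 6 type IV chains were higher. Col4a3 read 79.7 and 82.8 in the cardiomyocytes and 0.6 to 17.5 on the 16 sorted arrays, and Col4a4 read 222.3 and 194.3 against 0.8 to 8.7. Neither gene overlapped. Both passed the filter only through the cardiomyocyte arrays and lay below the minimum on every sorted one, so the size of the differences depends on the offset: 3.14 ± 0.50 (limma adjusted p = 0.000289), or 1.68 to 4.42 with other settings, and 4.59 ± 0.31 (adjusted p = 4.72e-07), or 2.81 to 6.12. Other probe sets, dimmer on average, gave 1.31 for Col4a3, and 2.63 and 1.73 for Col4a4. Col4a5 read 2361 and 2961.3, against 246.3 and 235.8 in day 8 and 200.3 and 140.2 in day 7 GFP-positive cells, a difference of 3.67 ± 0.54 (adjusted p = 0.00018). Its partner Col4a6 was higher by 2.54 ± 0.44 (adjusted p = 0.000581).

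Col4a1 and Col4a2 had the smallest differences of the 6 chains. Col4a1 read 5657 and 6274.1 in the cardiomyocytes, 3722.4 and 3832 on day 8 and 2842.6 and 1438.1 on day 7 in GFP-positive cells. The cardiomyocyte arrays were the highest, by 1.11 ± 0.40 (limma adjusted p = 0.0389), and Col4a2 differed by 1.33 ± 0.44 (adjusted p = 0.0273). The Col4a1 call was lost without the GFP-positive array of day 8 of batch 1 (1.10, adjusted p = 0.0758), day 7 of batch 2 (0.86, adjusted p = 0.119) or day 8 of batch 2 (1.12, adjusted p = 0.0711), and without either cardiomyocyte array (adjusted p = 0.123 and 0.177). The Col4a2 call was lost without the same arrays except day 8 of batch 2 (adjusted p = 0.0616 to 0.13). Against day 8 GFP-positive cells alone these differences were 0.66 and 0.76 and not called (adjusted p = 0.295 and 0.276). Against GFP-negative cells of days 7 and 8 they were 3.26 and 3.76 (adjusted p = 3.64e-05 and 2.69e-05).

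Among fibrillar chains Col11a1, a nucleator of thin fibres, had the clearest difference. It read 1357.2 and 1535.8 in the cardiomyocytes and 10.9 to 83.3 on the sorted arrays, a difference of 5.41 ± 0.41 (limma adjusted p = 1.28e-06). Col5a2 read 6508.7 and 6750 against 289.4 to 447.8 in the 4 GFP-positive arrays, a difference of 4.14 ± 0.70 (adjusted p = 0.000458). The type I chains Col1a1 (1526.4 and 812.4 against 71 to 92.7) and Col1a2 (5897.7 and 6037.8 against 423.1 to 788.1) were higher by 3.62 ± 0.61 (adjusted p = 0.000448) and 3.34 ± 0.74 (adjusted p = 0.00294), and Col5a1 was higher by 2.76 (adjusted p = 0.000357). None of these overlapped with the 4 GFP-positive arrays. Of the 34 collagens 22 lay above and 6 below those arrays without overlap, and the share over all genes was not counted. Col3a1 read 7161.7 and 7496.2 against 744.4 to 1106.8, yet its difference of 3.0 ± 1.45 was not called (adjusted p = 0.112), and it was with batch as a block of the sorted arrays, in which the cardiomyocyte arrays, having no batch, were set midway between the batches (adjusted p = 0.016). Its standard error pools all groups, the day 5 arrays at 0.6 and 2.2 included. Against GFP-negative cells of days 7 and 8, Col1a2 (1.83, adjusted p = 0.0605) and Col3a1 (1.18, adjusted p = 0.537) were not called, while Col5a2 (2.95), Col5a1 (1.95), Col1a1 (2.33) and Col11a1 (5.36) were.

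Col8a1, a short network chain of vessel walls and endothelial matrices, had the largest difference of all collagens. It read 1762.2 and 1740.8 in the cardiomyocytes and 0.5 to 23.2 on the sorted arrays, a difference of 6.88 ± 0.42 (limma adjusted p = 3.05e-07) that ran from 4.89 to 8.00 with other offsets. Its partner Col8a2 was higher by 1.69 (adjusted p = 0.000929), at 51 and 47.3. The type VI chains Col6a1, Col6a2 and Col6a3, which link cells to fibres, were higher by 3.48, 3.25 and 2.29 (adjusted p = 0.000193, 0.000638 and 0.00172). The fibre-bound chains Col12a1, Col14a1 and Col16a1 were higher by 2.73, 1.79 and 1.62.

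The 5 collagens lower in the cardiomyocytes were Col9a1, Col26a1, Col2a1, Col23a1 and Col15a1. Col9a1, which coats type II fibres of cartilage, read 2.6 and 18.8 against 88.5 to 148.8, a difference of -3.09 ± 0.55 (limma adjusted p = 0.000638), although a second, dimmer probe set gave -0.49. Col2a1, the fibre that it coats, read 8.5 and 2.1 against 26 to 163, a difference of -2.45 ± 0.67 (adjusted p = 0.00975). Col26a1 and Col23a1 were lower by 2.60 and 1.81 in size. Col15a1 read 16 and 6.6 against 18.8 to 65.7, a difference of -1.20 ± 0.44 (adjusted p = 0.0414). Col18a1 read 873.5 and 971.4 against 1967.3 to 2992.2, a difference of -1.43 ± 0.61 that was not called (adjusted p = 0.0763) except with batch as a block (adjusted p = 0.0236).

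In the 18 fits that each left out 1 array, 19 of the 24 calls held every time, and those of Col2a1, Col4a1, Col4a2, Col14a1 and Col15a1 did not. Col2a1 was not called without the second cardiomyocyte array (-2.06, adjusted p = 0.104). Col14a1 was not called without either cardiomyocyte array or any 1 of 3 GFP-positive arrays (both of day 7 and that of day 8 of batch 2), with adjusted p from 0.0504 to 0.162. Col15a1 lost its call in 9 of the fits, with the highest adjusted p of 0.311 without the second cardiomyocyte array. A fit without 1 cardiomyocyte array takes the other to vary like the other groups. Markers of other cells also differed on the cardiomyocyte arrays. Fibroblast and feeder markers summed to 11100.3 and 11941.1 against 1372.9 to 1527.7 in GFP-positive cells of days 7 and 8, with 6 of 9 called higher, Dcn by 6.06 and Lum by 4.15. Epicardial markers summed to 3174.9 and 3277.5 against 122.4 to 210.5 (3 of 4 higher), and smooth muscle markers to 16879.9 and 17677.7 against 5059.9 to 6870.4 (3 of 5 higher). In these lists the fibroblast marker S100a4, the epicardial Wt1 and the smooth muscle Myh11 met the minimum signal on fewer than 2 sorted arrays. They could enter the test only through the cardiomyocyte arrays, and the counts were not repeated without them. Parietal endoderm markers summed to 4634.4 and 4951.2 against 1914.1 to 3016.7 (3 of 7 higher), with Pdgfra counted in that list and in the fibroblast list. Endothelial markers summed to 227.4 and 261.8 against 3142.5 to 5688.8, with 8 of 8 called lower. Visceral and gut endoderm markers summed to 344.2 and 427 against 4972.9 to 14690, with 8 of 9 called lower. Of 5 tested cartilage and notochord markers, the tissues of Col2a1 and Col9a1, 2 were called lower (Matn1 by 3.30 and Shh by 1.85 in size), with a list median of -1.85. Of 3 tested neuroectoderm markers 2 were called lower, and 1 of 5 pluripotency markers. The part of the cells of these lists in the collagen differences was not tested.

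Genes that fold, trim, bind and degrade collagen were read from 4 further lists. Between the sorted fractions limma called 0 of their 42 tested genes, with 16 at an unadjusted p under 0.05, and for the interaction 0, with 2. Over all tested genes 2.68% and 0.142% were called in these comparisons. The shares of all genes at that unadjusted p are not given here, so the 16 and the 2 are not read as a result about these lists. Over time 11 of the 42 were called (26.2%), 10 of them higher (23.8%), shares near the 30.3% and 17.1% over all tested genes. Of these, 5 of 20 folding and modification genes rose, among them Plod2, the telopeptide lysyl hydroxylase (0.92, limma adjusted p = 0.000771), Sec24d, a coat protein of the vesicles that carry procollagen (0.83, adjusted p = 0.00594), and P4ha1, a catalytic subunit of prolyl hydroxylase (0.45, adjusted p = 0.00711). Of 5 propeptide genes Pcolce, an enhancer of the C-propeptidase, rose by 1.33 (adjusted p = 0.0159), and Adamts3, an N-propeptidase, fell by 0.78 (adjusted p = 0.00841). Of 7 receptor genes Itga1, Itgb1 and Lair1 rose, and of 10 breakdown genes Timp3, an inhibitor bound to the matrix, rose (1.60, adjusted p = 0.0043). Lair1 met the minimum signal only on arrays of days 7 and 8, so it could enter the test only through the days on which it was higher. The counts among 42 and 7 genes were not repeated without it.

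In the cardiomyocytes 26 of the 42 genes (61.9%) were called, all higher, where 43.3% of all tested genes were called and 17.9% were higher. Of these, 13 of 20 folding genes were higher than in GFP-positive cells of days 7 and 8. Crtap and P3h1, partners in the complex that hydroxylates a single proline of type I chains, were higher by 2.23 (limma adjusted p = 0.000131) and 1.97 (adjusted p = 0.00011). Sec24d was higher by 2.15 (adjusted p = 0.000197), and the collagen chaperone Serpinh1 by 1.38 (adjusted p = 0.016). Pcolce read 4087.1 and 4402.3 against 65.4 to 153.2, a difference of 5.28 (adjusted p = 3.63e-05), and Bmp1, the C-propeptidase it enhances, was higher by 1.46 (adjusted p = 0.00345). Of 7 receptor genes 4 were higher, among them the fibrillar collagen receptor kinase Ddr2 (2.70, adjusted p = 0.000905) and the uptake receptor Mrc2 (2.48, adjusted p = 0.000182). Of 10 breakdown genes 6 were higher, and the protease inhibitors Timp1 (4.94, adjusted p = 5.67e-06), Timp3 (4.09, adjusted p = 0.00014) and Timp2 (3.60, adjusted p = 3.3e-06) had larger differences than the gelatinase Mmp2 (2.68, adjusted p = 0.000583). The median difference over the folding list was 0.89, against -0.13 over all tested genes. The breakdown gene Ctsk read 51.9 and 38.6 in the cardiomyocytes and at most 18.2 on the sorted arrays. It could enter the test only through the cardiomyocyte arrays, and the counts among 42 and 10 genes were not repeated without it.

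**Figure D4:**
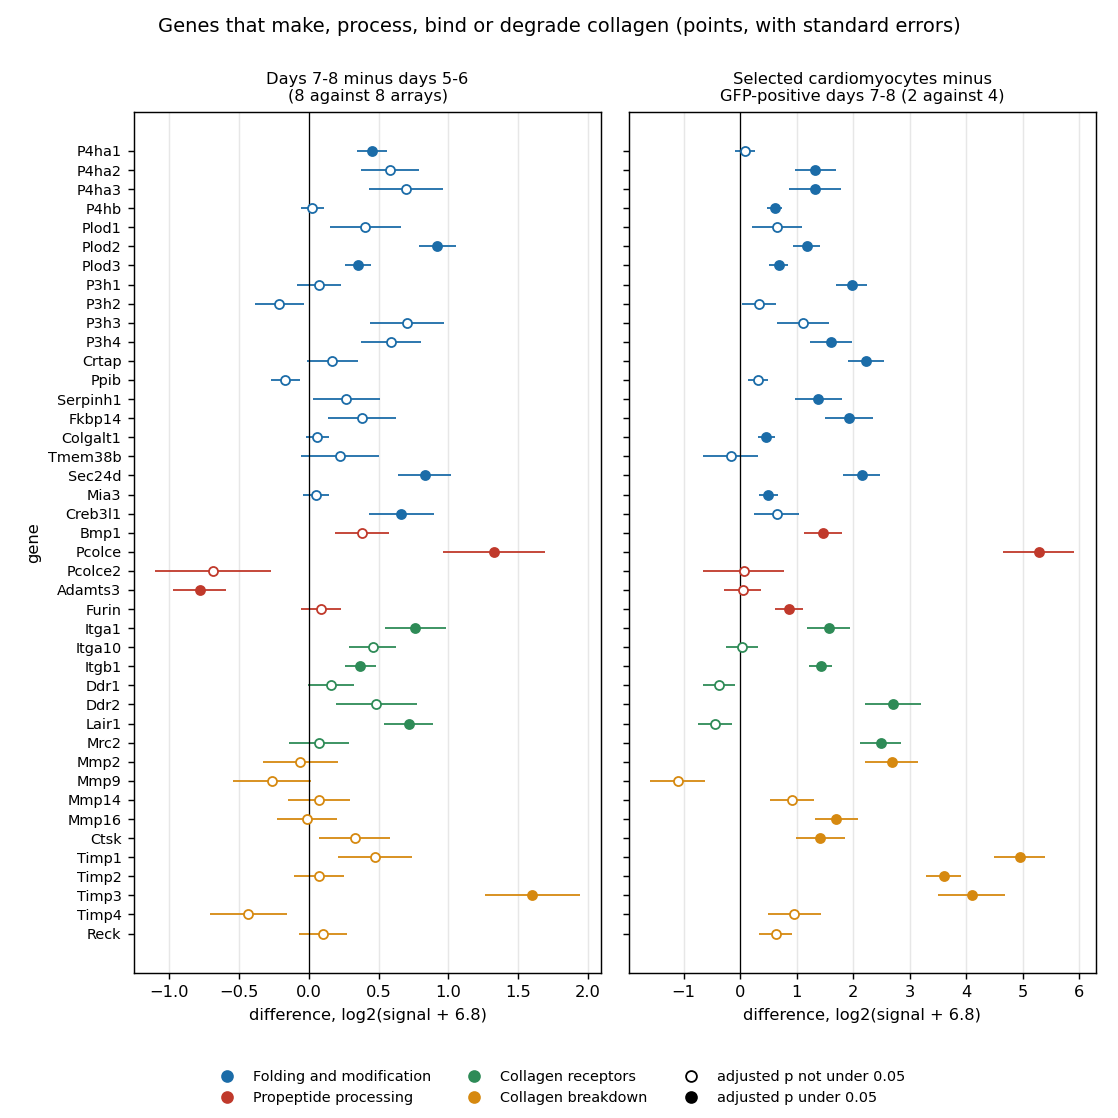
Differences in log2(signal + 6.8) with standard errors of genes that fold, process, bind or degrade collagen, for days 7 and 8 against days 5 and 6 and for selected cardiomyocytes against GFP-positive cells of days 7 and 8, with filled points for called genes. In the right panel Pcolce (5.28) and Timp1 (4.94) lie farthest to the right.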

How the data were processed

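The deposited signal intensities are linear and come from GCOS 1.4 and MAS5, per the submitters' processing notes, and from RNA taken through 2 rounds of amplification per the labels' protocols. Every array had a trimmed mean of 150.0 (2% left out at each end). No detection calls were used here. From 45101 probe sets, those with 1 gene symbol were kept and the brightest per gene by mean was used. limma 3.58.1 in R 4.3.3 was fitted to log2(signal + 6.8) with 1 mean per group of 2 arrays (9 residual degrees of freedom) and a variance trend, with Benjamini-Hochberg adjustment over 13379 genes. Batch, given in the sample titles, was an alternative as a block. Fits to 1 batch alone took the 2 days of each period as replicates. Of 28 correlations of batch differences between groups, 13 were over 0.1 (range -0.183 to 0.653). The alternative with batch as a block took batches to pair the samples, while the main fit did not use this pairing. No fit took the GFP-positive and GFP-negative arrays of the same day and batch as a pair. On simulated data with planted differences of 2, the fits called 72% to 96% of changed genes. The collagen genes, classes and other lists were chosen with earlier results of these data known. Values were given for collagens that were called, main chains of each class and their partners, the extremes of each comparison and up to 4 called genes per list. Other chains are given by counts. Gene symbols without a probe set of their own (Fkbp10, Adamts2, Adamts14, Itga11 and Mmp15) were not analysed here.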

Additional observations from a re-analysis of the deposited data

How the results depend on the processing

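For GFP-positive against GFP-negative cells it was 2, and it was 4 in batch 1 alone (3 higher, 1 lower), 0 in batch 2 alone (limma called 0 of all genes there, and 2 collagens had an unadjusted p under 0.05) and 2 to 3 when 1 array was left out. For days 7 and 8 against days 5 and 6 it was 15, and it was 3 in batch 2 alone, where the Col4a1 difference turned to -0.0089 (adjusted p = 0.989), 9 without the day 5 arrays of batch 2 and 9 to 18 when 1 array was left out. In GFP-positive cells it was 5, and it was 2 in batch 1 alone, 0 in batch 2 alone, 1 without the day 5 arrays of batch 2 and 1 to 9 when 1 array was left out. In GFP-negative cells it was 8, and it was 0 in batch 2 alone, 5 without those arrays and 1 to 11 when 1 array was left out. The interaction stayed at 0 calls in every fit that left out 1 array, and the cardiomyocyte comparison gave 19 to 25 calls against its 24. With batch as a replicate block the counts were 2, 18, 0, 26, 10 and 10 in the order of sort, time, interaction, cardiomyocytes, time in GFP-positive and time in GFP-negative cells, and the collagens whose calls this pairing changed are named with their comparisons. Except for the sort in batch 2 alone, the shares of all tested genes called in the alternative fits are not given beside the counts. A change of a count between fits is therefore not read as a result about collagens. The cardiomyocyte arrays have no batch and were set midway between the batches. Equal array medians moved the median of all genes to -0.17 for time, -0.24 for time in GFP-positive cells and 0.19 for the cardiomyocytes. The reading without the day 5 arrays of batch 2 and the filter on sorted arrays alone were chosen after seeing the data. Signals below about 22.5 lie near background, where a difference depends on the offset.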
